A study of Mus musculus with 6 samples.

Results

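The 6 genes of lipid capture were followed in abdominal aorta, namely Cd36, Lpl, Gpihbp1, Angptl4, Lmf1 and Vldlr. They were taken by gene name as 6 of the 54532 genes in the deposited count table. They were selected on the measured differences of Cd36 and Lpl between Olfr2 KO and WT libraries, together with partners of their pathway. Fold changes of these 6 genes between the genotypes are therefore given as a description, with no test. The tissue was mouse abdominal aorta at day 7 after induction of an aneurysm, in which the vessel widens locally. There were 3 libraries from Olfr2 KO mice, which lack an olfactory receptor gene, and 3 from WT mice, and all 6 came from aneurysm tissue with no library from uninjured aorta. Strain, age, the way of induction and the number of animals behind a library were not given in the sources used here, so spread between libraries may be partly technical.

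Fatty acids reach tissues in part inside triglyceride-rich lipoproteins. Lipoprotein lipase, the product of Lpl, frees them at the capillary surface after parenchymal cells such as fat and muscle cells have made it. LMF1 helps the lipase fold in the endoplasmic reticulum, GPIHBP1 carries it across the capillary endothelium, and ANGPTL4 inactivates it. CD36 takes up long-chain fatty acids and oxidised lipoproteins in fat cells, muscle, capillary endothelium and macrophages, while VLDLR binds lipoproteins that carry apolipoprotein E.

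The libraries held 17248918 to 21872027 gene counts. Levels are given as CPM, counts relative to the size of the library, with sizes scaled by TMM, a method that corrects for differences in library composition. Olfr2 itself had 0 counts in every library, which allows up to 0.182 CPM so it cannot check which library is of which genotype. Of 16237 genes tested by edgeR's quasi-likelihood test, 2 (0.0123%) passed an adjusted p under 0.05, the threshold used throughout. Without adjustment 1859 genes (11.4%) had a p under 0.05, 5.36% of all genes higher and 6.09% lower in KO, while DESeq2 called 451 (2.78%) and limma-voom 0. Without WT replicate 3 edgeR called 167, and without KO replicate 1 or WT replicate 1 it called 0. All 6 lipid capture genes were abundant enough to be tested, and edgeR called 0 of them. DESeq2 called 3 of them higher, namely Cd36, Lpl and Vldlr, as it did 1.03% of all genes, and the same 3 had an unadjusted p under 0.05 by edgeR. With every gene kept that had a count, edgeR also called these 3, and without WT replicate 3 it called Cd36 and Lpl. These counts come from the contrast that chose the genes, so nothing is read from them.

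Cd36 encodes the fatty acid transporter and scavenger receptor. The gene (ENSMUSG00000002944) lies on the minus strand of chromosome 5 at 17781690 to 17888801 in GRCm38. It stood at 290, 245 and 229 CPM in KO replicates 1 to 3, against 70.4, 85.5 and 118 CPM in WT replicates 1 to 3. Every KO library lay above every WT library, and the lowest KO value was 1.94 times the highest WT value. KO libraries averaged 254 ± 31.6 CPM and WT libraries 91.2 ± 24.1 CPM (SD, n = 3 each). The log2 fold change was 1.48 (SE 0.19). WT replicate 3 was the highest WT library, at 1.51 times the mean of the other two. Leaving out single libraries gave log2 fold changes of 1.32 to 1.71.

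Lpl encodes lipoprotein lipase (ENSMUSG00000015568, plus strand of chromosome 8, 68880491 to 68907448). Its levels were 275, 343 and 312 CPM in KO replicates 1 to 3, against 78.8, 94.2 and 142 CPM in WT replicates 1 to 3. As for Cd36, the genotypes did not overlap and WT replicate 3 was the highest WT library, here at 1.65 times the mean of the other two. KO libraries averaged 310 ± 33.8 CPM and WT libraries 105 ± 33.2 CPM (SD, n = 3 each). The log2 fold change was 1.56 (SE 0.21), and 1.39 to 1.84 with single libraries left out.

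Vldlr, the very low density lipoprotein receptor gene (ENSMUSG00000024924, plus strand of chromosome 19, 27216484 to 27254231), was the least abundant of the 6 per kb of exon. It had 9.64, 11.97 and 14.1 CPM in KO replicates 1 to 3, from 168, 234 and 302 counts, against 4.95, 5.40 and 5.64 CPM in WT replicates 1 to 3, from 91, 89 and 98 counts. The genotypes did not overlap, and here WT replicate 3 stood close to the other WT libraries, at 1.09 times their mean. KO libraries averaged 11.9 ± 2.22 CPM and WT libraries 5.33 ± 0.352 CPM (SD, n = 3 each). The log2 fold change was 1.16 (SE 0.20). KO replicate 3, which had the highest Vldlr, also held the only high levels of skeletal muscle markers, and without it the log2 fold change was 1.02. Of all genes tested, 7.83% were higher in KO with no overlap between genotypes, and 3 of these 6 genes were, which their choice made likely.

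**Figure D1:**
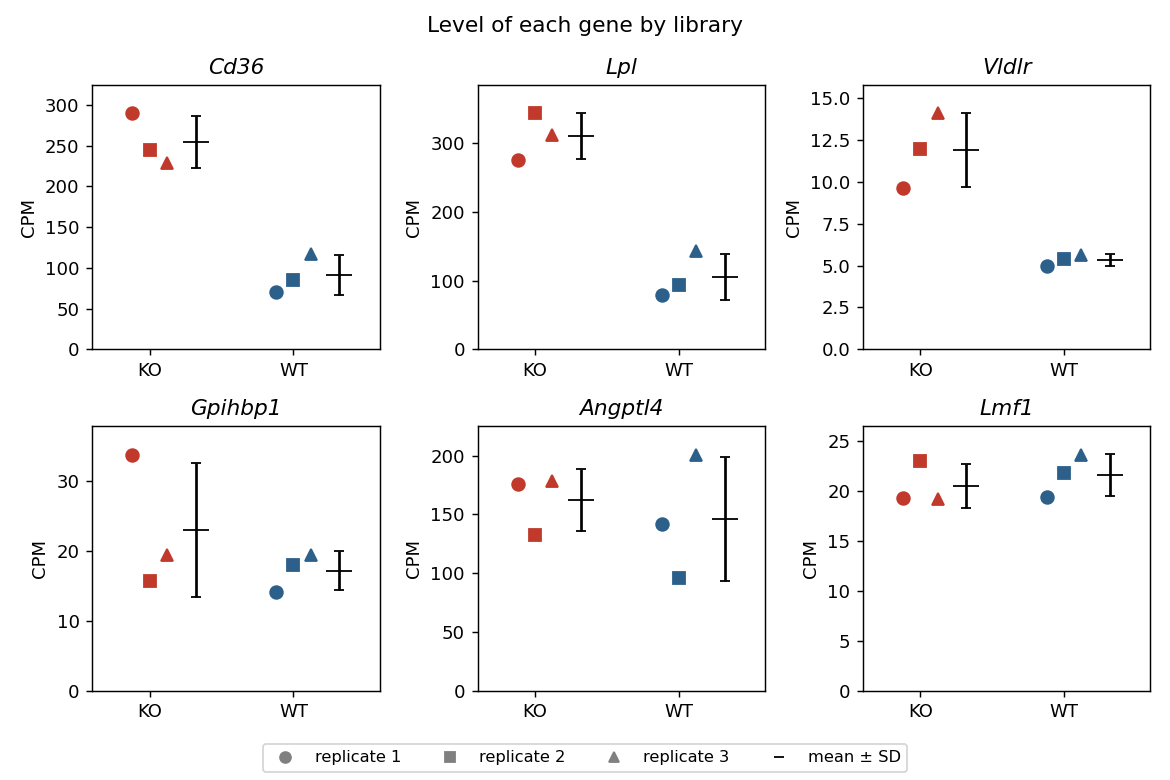
Level of Cd36, Lpl, Vldlr, Gpihbp1, Angptl4 and Lmf1 in CPM (y axis, from 0) in each KO library (red) and WT library (blue), with replicate numbers as symbols and the mean ± SD beside them. The KO points lie above all WT points for Cd36, Lpl and Vldlr, and the genotypes overlap for the other 3 genes.

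Gpihbp1 encodes the endothelial anchor of the lipase (ENSMUSG00000022579, plus strand of chromosome 15, 75596628 to 75599481). It stood at 33.9, 15.7 and 19.4 CPM in KO replicates 1 to 3, against 14.1, 18.1 and 19.5 CPM in WT replicates 1 to 3. KO replicate 1 was high, and the other KO libraries lay inside the WT range. The log2 fold change of 0.42 (SE 0.27) became 0.03 without KO replicate 1. KO replicate 2, the highest library for Lpl, was the lowest KO library for Gpihbp1.

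Angptl4 encodes the secreted lipase inhibitor (ENSMUSG00000002289, minus strand of chromosome 17, 33773750 to 33781830). It stood at 176, 132 and 179 CPM in KO replicates 1 to 3, against 141, 95.8 and 201 CPM in WT replicates 1 to 3. The WT libraries spanned a 2.10-fold range that enclosed all KO libraries. The log2 fold change was 0.15 (SE 0.24), with -0.08 without WT replicate 2 and 0.45 without WT replicate 3. Lmf1, the lipase maturation factor gene (ENSMUSG00000002279, plus strand of chromosome 17, 25579085 to 25662826), varied least of the 6 by pooled SD. It stood at 19.2, 23.0 and 19.2 CPM in KO replicates 1 to 3, against 19.4, 21.8 and 23.6 CPM in WT replicates 1 to 3. The genotypes overlapped, with a log2 fold change of -0.08 (SE 0.14). None of the exon bases of the 6 genes overlapped exons of another annotated gene on either strand.

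Promoter windows from RefSeq on GRCm38.p6 were matched for 3 of the 6 genes, namely Cd36, Vldlr and Lmf1, and are shown for that reason alone. Lpl, Gpihbp1 and Angptl4 had no match. Each line gives the 250 bases before an annotated start, 5′ to 3′ on the gene's strand, with motif matches in capitals.
Cd36: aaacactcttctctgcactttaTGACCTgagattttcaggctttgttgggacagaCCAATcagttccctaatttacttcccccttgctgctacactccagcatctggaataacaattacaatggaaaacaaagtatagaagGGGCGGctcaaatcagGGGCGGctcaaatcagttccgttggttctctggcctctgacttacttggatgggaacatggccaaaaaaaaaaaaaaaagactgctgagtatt
Vldlr: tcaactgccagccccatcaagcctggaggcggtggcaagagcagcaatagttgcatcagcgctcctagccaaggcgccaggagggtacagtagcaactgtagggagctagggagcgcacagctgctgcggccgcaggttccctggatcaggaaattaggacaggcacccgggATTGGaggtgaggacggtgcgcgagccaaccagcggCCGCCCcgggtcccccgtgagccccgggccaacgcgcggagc
Lmf1: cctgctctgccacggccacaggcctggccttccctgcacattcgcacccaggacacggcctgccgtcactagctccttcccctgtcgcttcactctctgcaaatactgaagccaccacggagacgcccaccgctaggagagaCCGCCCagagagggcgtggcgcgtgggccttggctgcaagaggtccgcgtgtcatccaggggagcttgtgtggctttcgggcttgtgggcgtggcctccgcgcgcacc
The windows are chr5:17835897-17836146 on the minus strand for Cd36, chr19:27216770-27217019 on the plus strand for Vldlr and chr17:25578924-25579173 on the plus strand for Lmf1. The Cd36 window precedes an internal start of the gene, which has further annotated starts upstream. The Vldlr window printed also lies inside the annotated gene, which begins at 27216484. RefSeq gives Vldlr a second, upstream window, chr19:27216234-27216483, directly before that annotated start. This second window, not printed, held none of the motifs searched.

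Both strands were searched for the nuclear receptor core motif AGGTCA, which PPAR and related receptors recognise as a repeat, for the direct repeat of that motif with 1 base between, for the CCAAT box, for the GC box GGGCGG and for the TATA box TATAAA. The Cd36 window held the core motif once, in reverse at positions -228 to -223 from the start, as did 14% of 32817 promoter windows. It also held the CCAAT box once and the GC box at 2 places. The printed Vldlr window held the CCAAT box and the GC box once each, in reverse. The Lmf1 window held the GC box once, in reverse. Of all windows, 33.8% held the CCAAT box and 32.7% the GC box. The full repeat was in 11 of all windows and the TATA box in 12.4%, and neither was in the windows of these 3 genes. A match describes the letters of the window and is not evidence of binding.

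Levels of different genes were compared per kb of exon length, which a longer annotated exon set lowers. In KO, Cd36 was highest with 70.9 ± 8.79 CPM per kb, followed by Angptl4 with 45.9 ± 7.38, Lpl with 29.6 ± 3.23 and Gpihbp1 with 8.999 ± 3.76 CPM per kb (SD, n = 3 each). Lmf1 with 1.505 ± 0.161 and Vldlr with 1.18 ± 0.221 CPM per kb came last in KO, and their intervals of mean ± SD overlapped. In WT, Angptl4 was highest with 41.3 ± 14.9 CPM per kb, ahead of Cd36 with 25.4 ± 6.72, Lpl with 10.03 ± 3.17 and Gpihbp1 with 6.73 ± 1.09 CPM per kb (SD, n = 3 each). Lmf1 with 1.59 ± 0.157 and Vldlr with 0.529 ± 0.0350 CPM per kb again came last. In WT the intervals of Angptl4 and Cd36 overlapped, and so did those of Lpl and Gpihbp1. The order of the 6 genes was the same in all 3 KO libraries and the same in all 3 WT libraries. The genotypes differed in that order at the top alone, where Cd36 stood above Angptl4 in KO and Angptl4 above Cd36 in WT. Cd36 was chosen on its difference between these same libraries, so this swap is no separate finding.

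**Figure D2:**
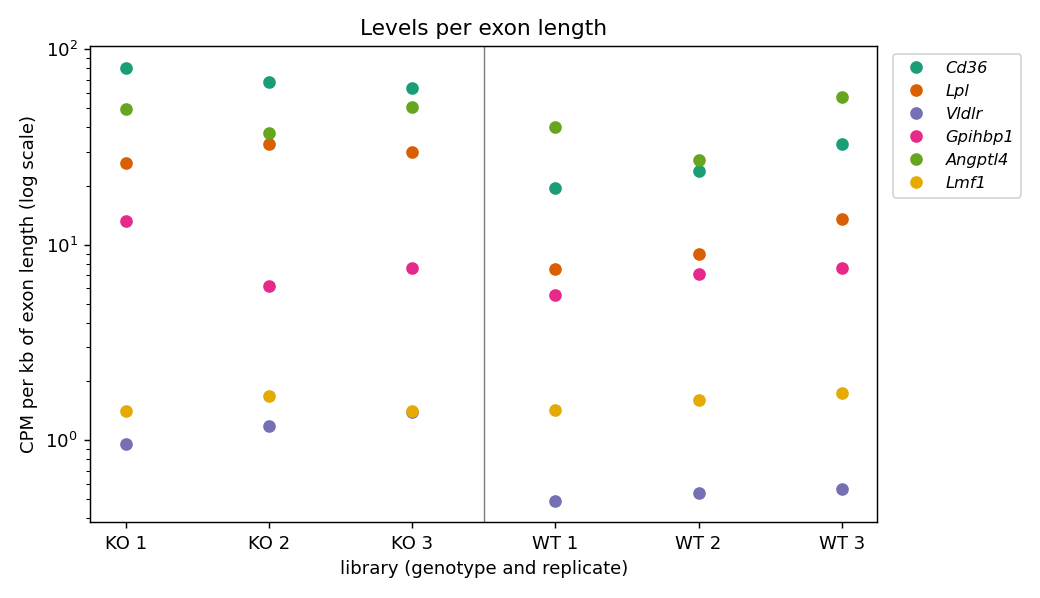
CPM per kb of exon length (y axis, log scale) of the 6 genes in each of the 6 libraries (x axis, KO left of the grey line, WT right of it). Cd36 is the top point in the KO libraries and Angptl4 in the WT libraries, while Lmf1 and Vldlr lie lowest in all 6. Cd36 was chosen with this contrast known, so the order at the top is description only.

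Ratios within a library do not depend on its scaling. Lpl over Cd36, per kb, was 0.326, 0.480 and 0.467 in KO replicates 1 to 3, against 0.383, 0.377 and 0.414 in WT replicates 1 to 3. The genotypes overlapped, at means of 0.424 ± 0.0855 in KO and 0.392 ± 0.02005 in WT (SD, n = 3 each). Lpl over Gpihbp1, the lipase against its endothelial anchor, was 1.98, 5.34 and 3.91 in KO replicates 1 to 3, against 1.36, 1.27 and 1.78 in WT replicates 1 to 3. Angptl4 over Lpl, the inhibitor against the enzyme, was 1.89, 1.14 and 1.70 in KO replicates 1 to 3, against 5.32, 3.01 and 4.18 in WT replicates 1 to 3. The last ratio averaged 1.58 ± 0.390 in KO and 4.17 ± 1.154 in WT (SD, n = 3 each), with no overlap. Lpl over Gpihbp1 did not overlap either and was higher in KO. As quotients of the values above these ratios are no separate finding. Transcript ratios do not measure the proteins.

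**Figure D3:**
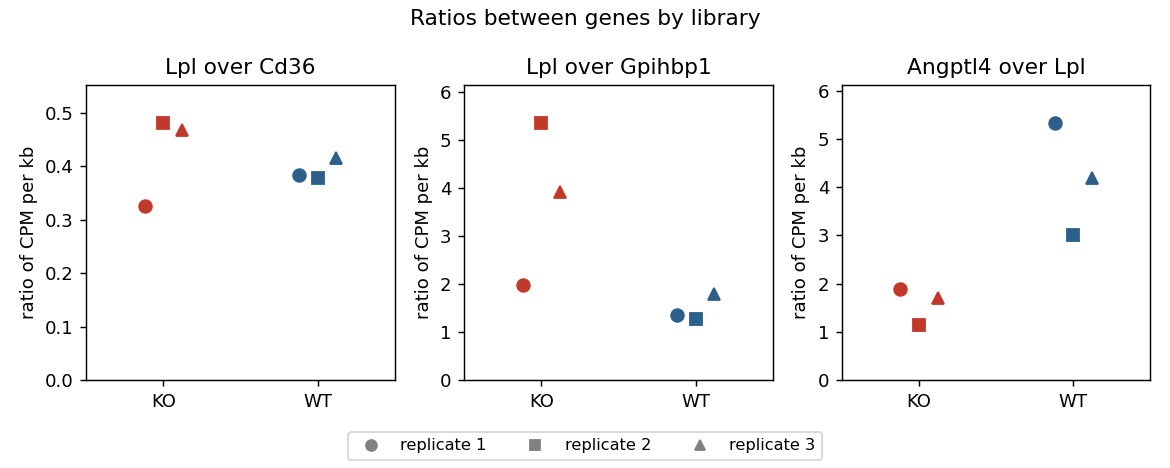
Ratios of CPM per kb (y axis, from 0) between pairs of the genes in each KO library (red) and WT library (blue), with replicate numbers as symbols. Lpl over Cd36 overlaps between genotypes, Lpl over Gpihbp1 lies higher in KO and Angptl4 over Lpl lies lower in KO.

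Patterns were compared by the root mean square difference of log2 CPM, each gene centred on its own mean over the 6 libraries. Cd36 and Lpl differed by 0.191, and Vldlr by 0.359 from Cd36 and 0.334 from Lpl. Cd36 and Lpl were chosen on their differences between these same libraries. A small distance between them was therefore likely and is no separate finding. Gpihbp1, Angptl4 and Lmf1 differed from Cd36 by 0.638 to 0.816. Among 13101 protein-coding genes compared, Lpl was the nearest to Cd36. Next to it came Thrb (0.197), a thyroid hormone receptor gene, then Igsf9b (0.203), Ntrk3 (0.209), a neurotrophin receptor gene, and Gpr17 (0.236). Nearest to Lpl were Proser2 (0.182), Cd36 (0.191), Rbp7 (0.227), a retinoid-binding protein gene, G0s2 (0.240), an inhibitor of triglyceride lipase, and Ntrk3 (0.254). With single libraries left out, 0 to 3 of the 5 genes nearest to Cd36 and 2 to 4 of those nearest to Lpl remained. The lowest count for Cd36, 0, came without WT replicate 3.

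Fat cells express Cd36 and Lpl strongly, and their markers differed between these libraries. The 9 white adipocyte markers, among them Adipoq (adiponectin) and Plin1 (a coat protein of lipid droplets), summed to 729 to 1314 CPM in KO and 140 to 992 CPM in WT. Adipoq stood at 191, 91.5 and 123 CPM in KO replicates 1 to 3, against 20.2, 21.6 and 96.4 CPM in WT replicates 1 to 3. The white adipocyte score, the mean log2 CPM of the 9 markers, was 5.40, 4.92 and 4.46 in KO replicates 1 to 3, against 1.94, 2.12 and 4.44 in WT replicates 1 to 3. WT replicate 3, the WT library highest in Cd36 and Lpl, was thus also the one WT library with a score near those of KO. In bulk tissue, more cells of a type and more RNA per cell cannot be told apart.

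KO replicate 3 and WT replicate 3, a pair chosen after their values were seen, had nearly equal scores of 4.46 and 4.44. Between these libraries KO replicate 3 had 1.94 times the Cd36, 2.19 times the Lpl and 2.496 times the Vldlr of WT replicate 3, with no replicate check. For Gpihbp1, Angptl4 and Lmf1 the factors were 0.999, 0.889 and 0.812. Single white adipocyte markers were less alike than the score, with factors of 1.28 for Adipoq, 0.567 for Plin1 and 0.964 for Cidec. The skeletal muscle markers summed to 1026 CPM in KO replicate 3 and 5.065 CPM in WT replicate 3. The part of skeletal muscle in these factors was not tested. KO replicate 2, at a higher score of 4.92, was compared with WT replicate 3 in the same way. It had 2.08 times the Cd36, 2.41 times the Lpl and 2.12 times the Vldlr. The factors were 0.805 for Gpihbp1, 0.658 for Angptl4 and 0.973 for Lmf1, and 0.949 for Adipoq, 0.898 for Plin1 and 1.11 for Cidec. Its brown adipocyte markers, given below, summed to 72.2 CPM, against 10.4 CPM in WT replicate 3. With the white adipocyte score as a term in the fit, the log2 fold change was 0.95 (SE 0.20) for Cd36, 1.08 (SE 0.25) for Lpl and 1.21 (SE 0.34) for Vldlr. It was -0.04 (SE 0.42) for Gpihbp1, -0.36 (SE 0.29) for Angptl4 and -0.24 (SE 0.23) for Lmf1. For Cd36 and Lpl the difference was smaller than without the term, and for Vldlr it was not. The score itself did not overlap between genotypes, and of the WT libraries only WT replicate 3 came near KO. The term therefore cannot be fully told apart from genotype in these libraries, and the part of adipocytes was not tested.

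**Figure D4:**
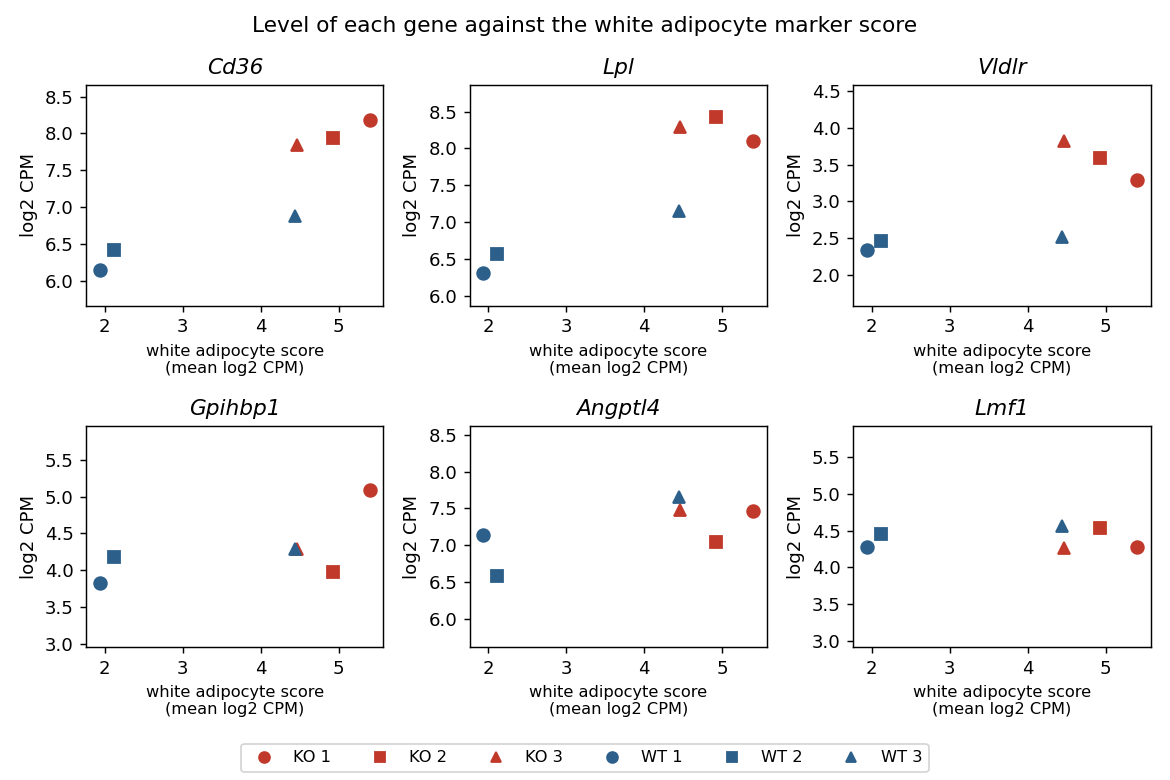
log2 CPM of each of the 6 genes (y axis, each panel spanning 3 log2 units) against the white adipocyte score (x axis, mean log2 CPM of 9 markers) in the KO libraries (red) and WT libraries (blue). KO replicate 3 and WT replicate 3 have scores of 4.46 and 4.44, and there the KO point lies above the WT point for Cd36, Lpl and Vldlr. KO replicate 3 also holds the only high levels of skeletal muscle markers.

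Markers of other cells that could supply these transcripts were examined in the same way. The 12 endothelial markers, led by Pecam1 and Cdh5, summed to 834 to 1021 CPM in KO and 766 to 1078 CPM in WT. Their median log2 fold change was 0.02, with 0 of 12 called by edgeR or DESeq2 and 0 at an unadjusted p under 0.05. The 6 capillary markers summed to 164 to 184 CPM in KO and 122 to 214 CPM in WT, with a median of 0.94. A pair of them, Btnl9 and Car4, were called by DESeq2 as higher and 0 by edgeR, with 3 of 6 at an unadjusted p under 0.05. With the white adipocyte score as a term in the fit, the capillary median was 0.01. That term cannot be fully told apart from genotype. KO replicate 1 was the highest library for Gpihbp1 and for the white adipocyte score (5.40). It was also the highest for the capillary markers Cd300lg, Btnl9, Car4, Rgcc and Aqp7. It was the lowest of the 6 libraries for Plvap, the remaining capillary marker, at 73.4 CPM against 82.3 to 148 CPM elsewhere, and WT replicate 3, at 214 CPM, had the highest sum of the capillary markers. The part of adipocytes and of capillary endothelium in these levels was not tested beyond the values given.

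The 8 macrophage markers, among them Adgre1 and Cd68, summed to 3385 to 4272 CPM in KO and 3649 to 5569 CPM in WT, with a median log2 fold change of -0.16. The 6 markers of lipid-laden macrophages summed to 1693 to 2677 CPM in KO and 1539 to 1966 CPM in WT, with a median of 0.36 and Atp6v0d2, a proton pump subunit gene, called by DESeq2. The 6 brown adipocyte markers summed to 72.2 CPM in KO replicate 2 and to 0.978 to 16.3 CPM elsewhere, Cidea being at 0 in WT replicates 1 and 2. The 8 skeletal muscle markers summed to 1026 CPM in KO replicate 3 and to 5.06 to 16.03 CPM elsewhere. The 8 smooth muscle markers, led by Myh11 and Acta2, summed to 1760 to 2733 CPM in KO and 1002 to 1508 CPM in WT, and DESeq2 called 7 of them higher. Their median was 1.21, and 8 of 8 were higher in KO with no overlap, against 7.83% of all genes tested. Their mean log2 CPM was 6.40 to 6.78 in KO and 5.43 to 5.65 in WT. This smooth muscle score was not used as a term in the fit. The 6 fibroblast markers summed to 9401 to 13280 CPM in KO and 11370 to 17230 CPM in WT, with a median of 0.01. By edgeR 0 markers of any list were called with all libraries. Higher in KO at an unadjusted p under 0.05 were 6 of 9 white adipocyte and 3 of 4 tested brown adipocyte markers. So were 2 of 6 lipid-laden macrophage, 8 of 8 smooth muscle and 4 of 4 tested skeletal muscle markers. In these lists 0 were lower at that p, and 0 of 6 fibroblast markers had such a p. The skeletal muscle markers were high in KO replicate 3 alone. Of all genes tested, 5.36% were higher and 6.09% lower in KO at that p. Of the 8 macrophage markers 1 was higher at that p, Mrc1 at a log2 fold change of 0.38, and 1 lower, Fcgr1 at -0.68. Without WT replicate 3, edgeR called 7 of the 9 white adipocyte, 1 brown adipocyte and 2 of the 8 smooth muscle markers, and with every gene kept that had a count it called 4 smooth muscle markers. DESeq2 called 1 white and 1 brown adipocyte marker. All these cell types can express some of the 6 lipid genes, and their share in each level was not tested.

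The 5 lists of lipid genes without the 6 members place them in their pathway. All medians are log2 fold changes of KO over WT and stand beside a median of 0.006 and 51.1% positive values for all 16237 tested genes. By edgeR 0 genes of the 5 lists were called in either direction, and by limma-voom 0.

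Genes of fatty acid uptake and binding had a median of 0.23, with 12 of 19 tested genes above 0. At an unadjusted p under 0.05, 6 were higher and 1 lower in KO, and DESeq2 called 0. Fabp4, the fatty acid carrier of fat cells, capillaries and macrophages, stood at 997, 687 and 474 CPM in KO replicates 1 to 3, against 129, 162 and 418 CPM in WT replicates 1 to 3. Its genotypes did not overlap, WT replicate 3 again being the highest WT library, and the log2 fold change of 1.61 (SE 0.43) did not pass (edgeR adjusted p = 0.195). The transporter gene Slc27a1 had 0.69 (SE 0.23), the acyl-CoA synthetase gene Acsl1 0.68 (SE 0.26) and caveolin Cav1 0.36 (SE 0.15). Fabp5, a carrier of macrophages and skin, had 0.23 (SE 0.21) and Fabp3, of muscle and heart, 0.56 (SE 0.45), which turned to -0.14 without KO replicate 3. The lowest was Zdhhc5, whose enzyme attaches palmitate to CD36, at -0.27 (SE 0.10). Without WT replicate 3, edgeR called Fabp4 at 2.31 and Acsl1 at 1.06, and also Slc27a1. With the white adipocyte score as a term, the log2 fold changes were 0.30 for Fabp4, 0.02 for Slc27a1, -0.05 for Acsl1 and 0.11 for Cav1.

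Genes of the PPAR receptors and their targets had the highest median of the 5 lists, 0.47, with 13 of 17 above 0. At an unadjusted p under 0.05, 5 were higher and 0 lower. Pparg, the receptor that drives fat cell formation and acts on Cd36 and Lpl, stood at 32.3, 23.4 and 22.2 CPM in KO replicates 1 to 3, against 11.9, 17.8 and 16.8 CPM in WT replicates 1 to 3. Its genotypes did not overlap, with a log2 fold change of 0.74 (SE 0.20) that did not pass (edgeR adjusted p = 0.195). DESeq2 called Pparg and Acadm, a gene of fatty acid oxidation. Ppard had -0.16 (SE 0.17) and the partner receptor gene Rxra -0.09 (SE 0.16), while Ppara was too low to be tested, at 0.0606 to 1.43 CPM.

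Among PPAR target genes, Plin2, which coats lipid droplets, stood at 0.30 (SE 0.21) on the log2 scale, and Pdk4, a brake on glucose oxidation, at 0.41 (SE 0.45). Angptl4, itself a target of these receptors, stood at 0.15 as given above. The highest of the list was the droplet coat gene Plin5 at 2.02 (SE 0.63), though at 2.76 CPM or less in every library. Without WT replicate 3, edgeR called Plin4 at 2.40, Plin5 at 3.82 and Ucp3 at 2.98. With the white adipocyte score as a term the median of the list was -0.07, with Plin5 at 0.66, Pparg at 0.44 and Pdk4 at -0.58.

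Genes of triglyceride synthesis and breakdown had a median of 0.29, and 14 of 16 were above 0. At an unadjusted p under 0.05, 2 were higher and 0 lower. G0s2, the inhibitor of the triglyceride lipase ATGL, stood at 18.4, 22.05 and 25.9 CPM in KO replicates 1 to 3, against 8.26, 6.85 and 11.97 CPM in WT replicates 1 to 3. Its genotypes did not overlap, and the log2 fold change of 1.29 (SE 0.22) passed by DESeq2 but not by edgeR (edgeR adjusted p = 0.0921), except by edgeR with every gene kept that had a count. ATGL itself, from Pnpla2, had 0.45 (SE 0.30), hormone-sensitive lipase Lipe 0.32 (SE 0.30), and the last enzymes of synthesis 0.28 (SE 0.19) for Dgat1 and 0.35 (SE 0.44) for Dgat2. For these 4 genes WT replicate 3 lay within or above the KO range. The lowest was Agpat1 at -0.19 (SE 0.14). Without WT replicate 3, edgeR called Dgat2 at 1.24, Pnpla2 at 0.97 and G0s2 at 1.55, and the median was 0.57. With the white adipocyte score as a term, G0s2 was at 0.96, Pnpla2 at -0.47, Lipe at -0.60, Dgat1 at -0.12 and Dgat2 at -0.90.

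The other genes around the lipase had a median of -0.08, with 5 of 13 tested above 0. At an unadjusted p under 0.05, 2 were higher and 0 lower, and DESeq2 called 0. These 2 were Angptl8, a partner of the ANGPTL inhibitors, at 1.40 (SE 0.48), and Apoc1, an apolipoprotein that inhibits the lipase, at 1.38 (SE 0.50). Angptl8 stood at 2.51 CPM or less in every library, and Apoc1 was called by edgeR without WT replicate 3, at 2.40. With the white adipocyte score as a term Angptl8 was at 0.70. Apoe, the ligand of VLDLR, stood at 4411, 5496 and 6657 CPM in KO replicates 1 to 3, against 4121, 7700 and 5787 CPM in WT replicates 1 to 3, a log2 fold change of -0.09 (SE 0.32). Sel1l, which works with LMF1 in lipase folding, had 0.10 (SE 0.14) and Furin, which cleaves lipases and ANGPTL proteins, -0.30 (SE 0.13). Lipg, the endothelial lipase gene, had -0.78 (SE 0.36), the lowest value. Apoc2, whose product activates the lipase, was too low to be tested at 0.303 CPM or less, and 79.5% of its exon bases overlap another annotated gene, Gm44805.

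The relatives of VLDLR and their ligands had a median of -0.12, with 5 of 11 tested above 0. At an unadjusted p under 0.05, 1 was higher and 1 lower. The higher one was the apolipoprotein J gene Clu at 0.52 (SE 0.15), which DESeq2 called. Lrp1 had -0.29 (SE 0.16) and Lrp8, the receptor closest to VLDLR in structure, -0.12 (SE 0.16). Vldlr at 1.16 thus lay above all the other 11, of which Clu was the highest. Vldlr was among genes chosen with this contrast known, so nothing is read from its rank.

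**Figure D5:**
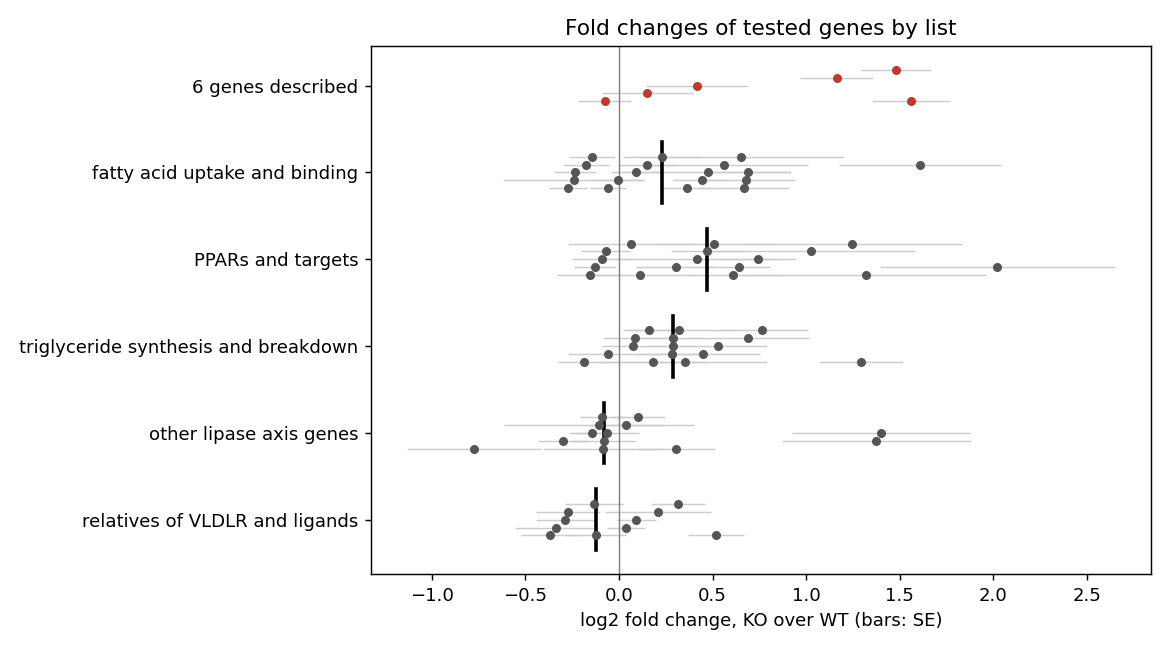
log2 fold change of KO over WT (x axis, bars give the SE) of each tested gene, with the 6 genes described in red on top and the 5 lists below, black bars marking list medians. The red points of Cd36, Lpl and Vldlr lie at 1.16 to 1.56, and those of Gpihbp1, Angptl4 and Lmf1 at -0.08 to 0.42. The list medians lie between -0.12 and 0.47, and single list genes reach higher, such as Fabp4 at 1.61 and Plin5 at 2.02. The 6 genes were chosen with this contrast known, so their place beside the lists is description only.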

How the data were processed

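RNA of mouse abdominal aorta was sequenced after selection on poly-T beads and random hexamer priming, per the labels' protocols. The deposited table holds raw read counts per gene, made by the authors with HISAT2 2.0.5 and featureCounts 1.5.0-p3 on GRCm38, as the submitters' processing notes name them. How strand and multi-mapping reads were handled, and which annotation was counted, were not given in the sources used here.

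Exon lengths (union of exons) and positions were read from GENCODE mouse release 21 (GRCm38), which placed 54495 of the 54532 genes. Pairs of libraries differed by a chi-square of 25.6 to 81.0 per degree of freedom over genes with at least 20 counts, so none was a repeat. Software was R 4.3.3, edgeR 4.0.16 and limma 3.58.1. After filterByExpr, which kept 16237 genes, and TMM scaling, KO was compared with WT by the quasi-likelihood test of edgeR, and p-values were adjusted by Benjamini-Hochberg over all genes kept. SEs are fold changes (log2) divided by the root of F, without sign. CPM rest on sizes after TMM scaling, and log2 CPM on a prior count of 2. The members, lists and tests were chosen with earlier results of these data known. Named genes were the 6 members, a fixed panel, the highest and lowest of each list, called genes, the genes of most like pattern and leading markers. Genes of the lists called under an alternative, and the pairs of KO and WT libraries of like adipocyte score, were added after their values were seen. Alternatives were other scalings and filters, the tests of DESeq2 1.42.0 and limma-voom, robust and legacy edgeR fits, a replicate block, the white adipocyte score as a covariate and single libraries left out. Floors from a count of 0 use 3 counts and cover counting error alone. The edgeR test was also tried on simulated data. Figures used matplotlib 3.10.9. A gene of the lists is not reported here.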

Additional observations from a re-analysis of the deposited data

How the results depend on the processing

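The 6 members' log2 fold changes moved by less than the spread between replicates under every scaling, filter, test, block and single library left out, and the count of genes called moved most. It was 451 with DESeq2, 44 with every counted gene kept, 7 with the white adipocyte score as covariate, 1 with the robust fit, and 0 with limma-voom, with a mean of at least 1 CPM and with the replicate block. With single libraries left out it was 0 to 167, against 2. Without WT replicate 3 the called genes included Cd36 and Lpl, and with every counted gene kept Cd36, Lpl and Vldlr.

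With the white adipocyte score as covariate, log2 fold changes became 0.95 for Cd36, 1.08 for Lpl, -0.04 for Gpihbp1, -0.36 for Angptl4 and -0.24 for Lmf1. That score did not overlap between genotypes, so this fit cannot fully separate the score from genotype. List medians became 0.00 for fatty acid uptake, -0.07 for PPARs and targets and -0.15 for triglyceride genes. Signs turned for the members Gpihbp1 and Angptl4, both uncalled. They also turned for Acsl1 (-0.05), Apoe (0.03), Dgat1 (-0.12), Dgat2 (-0.90), Lipe (-0.60), Lipg (0.19), Pdk4 (-0.58) and Pnpla2 (-0.47), all uncalled. With single libraries left out, the sign of the member Angptl4 turned (-0.08 to 0.45, negative without WT replicate 2). So did those of Apoe (-0.29 to 0.16, positive without KO replicate 1 or WT replicate 2) and Fabp3 (-0.14 to 0.84, negative without KO replicate 3). Those of Ppard (-0.28 to 0.03) and Rxra (-0.24 to 0.09) turned positive without WT replicate 3. The cause was not tested.

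DESeq2 called 1 gene among the relatives of VLDLR and their ligands, 2 of the PPAR list and 1 of the triglyceride list, and keeping every counted gene gave 1 of the triglyceride list and a median of 0.40 for fatty acid uptake. With single libraries left out, calls were 0 to 3 for the fatty acid, PPAR and triglyceride lists and 0 to 1 for the lipase axis. Medians were then 0.12 to 0.40, 0.34 to 0.71, 0.15 to 0.57 and -0.13 to 0.04 for these lists in that order, and -0.14 to 0.00 for the relatives of VLDLR and their ligands.

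Deviations of KO and WT libraries with the same replicate number had correlations of -0.101, -0.062 and -0.12. These gave no sign that the numbers pair the libraries, but with 3 libraries a genotype they cannot exclude it. The replicate block gave 0 calls, against 2 without it. The Olfr2 counts of 0 leave the genotype labels unchecked, and 3 libraries a genotype limit the precision of every fold change.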
